A study of Mus musculus with 2 samples.

Results

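Predicted piRNAs that the authors placed in DNA transposons formed 256 of the 6588 predicted piRNAs listed for mouse testicular extracellular vesicles (EVs), the small membrane-bound particles released by cells of the testis. They were chosen by their label alone: an entry was taken when it was a predicted piRNA and its repeat class began with DNA. Entries with an identical position label were grouped into a locus, which gave 56 loci of the 1648 predicted piRNA loci, on 15 chromosomes. All 256 entries had at least 10 counts in each library and none was left out by a filter here. The lowest count was exactly 10 in either library, and the sources used here do not state whether the list had been cut there beforehand.

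Small RNA was sequenced from EVs of adult C57/BL6 testis that had been treated with proteinase K and RNase A before extraction, a treatment meant to remove RNA outside the vesicles. There is 1 condition with 2 libraries, called library 1 and library 2 here, and no untreated EVs, whole testis or other tissue was analysed here. The labels give them as replicate 1 and replicate 2 without naming animals or isolations, so their spread may be a technical one. The vesicles came from the supernatant of dissociated seminiferous tubules, which hold germ cells and Sertoli cells. The paper also found EV proteins whose genes are enriched in Leydig cells and macrophages, and proposes that these cells contribute. The cells that released the vesicles were not told apart here. A higher level in each vesicle and a larger number of vesicles that carry the RNA cannot be told apart either.

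PIWI-interacting RNAs (piRNAs) are small RNAs of the germ line that guide PIWI proteins, in the mouse MILI, MIWI and MIWI2, to complementary transcripts. They are known for silencing transposons, and in meiotic and haploid male germ cells many of them are cut from long precursors of genomic clusters. DNA transposons move as DNA, by a transposase that cuts the element out and inserts it elsewhere, whereas LINE and LTR elements are copied through RNA. The copies in the mouse genome are old remnants of several superfamilies: hAT (the families Charlie, Tip100 and Blackjack), Tc1/mariner or TcMar (Tigger and Mariner) and MULE, which is related to the Mutator element of maize. The prediction program used by the authors, Piano, works from matches to transposons, so a place in a repeat follows from the method.

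Sequences are shown for the chromosome 17 hAT-Tip100 locus and the chromosome 11 hAT-Tip100 locus, because they have bases in common, for the hairpin of Mir5099, which also holds a stretch of the chromosome 11 locus, and for a chromosome 17 hAT-Charlie locus that lies on a transcript. Positions are those of the deposited labels, with the intervals counted inclusively, and the build was taken as GRCm38 from the annotation. The first and last sequences come from GENCODE M21 transcripts and the others from RefSeq tables of GRCm38.p6. Each is written 5′ to 3′ on the labelled strand, and capitals mark the longest run of at least 10 bases that it shares with each other sequence of the set. In the chromosome 11 sequence the runs shared with Mir5099 and with the chromosome 17 hAT-Tip100 sequence overlap, so its capitals are both runs joined.
hAT-Tip100, chr17:39843013-39843163, plus strand: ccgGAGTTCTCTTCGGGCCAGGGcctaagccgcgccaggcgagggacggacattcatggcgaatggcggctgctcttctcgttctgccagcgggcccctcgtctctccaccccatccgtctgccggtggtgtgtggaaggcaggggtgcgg
hAT-Tip100, chr11:104073090-104073136, minus strand: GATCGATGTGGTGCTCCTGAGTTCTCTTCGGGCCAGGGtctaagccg
Mir5099 hairpin, chr12:36816205-36816278, plus strand: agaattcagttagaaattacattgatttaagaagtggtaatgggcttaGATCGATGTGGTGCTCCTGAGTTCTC
hAT-Charlie, chr17:27362367-27362519, plus strand: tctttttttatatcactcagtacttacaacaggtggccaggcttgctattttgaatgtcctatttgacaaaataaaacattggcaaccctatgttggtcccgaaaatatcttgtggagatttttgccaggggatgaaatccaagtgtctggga

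The hAT-Tip100 loci on chromosomes 17 and 11 are both 166 bases long and share a run of 20 bases, which starts at base 19 of either interval. Only 151 of the 166 bases of the chromosome 17 locus and the first 47 of the chromosome 11 locus were available, so the rest was not compared. The available sequences overlap by 32 bases without a gap, and 30 of these are identical. The substitutions are G3T and C24T, with positions counted from 1 at the 5′ end of the printed chromosome 17 sequence and its base given first. The first 26 bases of the chromosome 11 locus are identical to the last 26 bases of the Mir5099 hairpin. Of 141767 GENCODE transcripts, a stretch of 20 bases of the chromosome 11 sequence was found in those of Gm26917 and Mir5099, and any such stretch of the chromosome 17 hAT-Tip100 sequence in Gm26917 alone. The hAT-Charlie sequence was found in its own transcript, Gm49794, and shared no run of more than 7 bases with the other loci shown. The GC content was 68.2% for the chromosome 17 hAT-Tip100 sequence, 59.6% for the chromosome 11 sequence and 39.2% for the hAT-Charlie sequence.

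Predicted piRNAs in DNA transposons were a minor class of the predicted piRNAs in both libraries. They held 14185 counts in library 1 and 15455 counts in library 2, of 21970654 and 24829208 counts listed in the libraries. Their level was 646 CPM (counts per 1000000 listed counts) in library 1 against 622 CPM in library 2, and averaged 634 ± 16.4 CPM (SD, n = 2). Among the counts of all predicted piRNAs their share was 2.53% in library 1, with a 95% interval of 2.49 to 2.57, against 2.80% in library 2, with one of 2.76 to 2.85, and averaged 2.67% ± 0.192. Intervals here and below are of the exact Clopper-Pearson kind, and they reflect counting alone, as copies made by PCR are not separate molecules. The share was thus further apart between the libraries than counting error. With the listed totals, the level had a log2 ratio of library 1 over library 2 of 0.05. The gap depended on the scaling. Over the estimated total of tags the level was 605 CPM in library 1 against 591 CPM in library 2. Over annotated entries alone it was 2427 CPM against 2421 CPM, so the libraries were closer with these totals. They were further apart with TMM and DESeq2 scaling. With TMM factors the level was 689 CPM in library 1 against 584 CPM in library 2, and with DESeq2 size factors 687 CPM against 585 CPM.

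The hAT superfamily held most of this signal. Its 202 piRNAs at 48 loci made up 71.2% (70.4 to 71.9) of DNA transposon counts in library 1 and 67.9% (67.1 to 68.6) in library 2. The 41 hAT-Charlie loci alone had 313 CPM in library 1 against 269 CPM in library 2, a mean of 291 ± 30.6 CPM, and were the most numerous family in loci and in piRNAs (165). The 6 hAT-Tip100 loci, with 33 piRNAs, had 103 CPM and 113 CPM in libraries 1 and 2, a mean of 108 ± 7.01 CPM. hAT-Blackjack was present by a single locus of 4 piRNAs, at 43.7 CPM in library 1 against 40.0 CPM in library 2.

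The MULE superfamily was also present by a single locus, yet this locus was the highest of all 56. It made up 17.1% (16.5 to 17.7) of DNA transposon counts in library 1 and 20.9% (20.3 to 21.6) in library 2. TcMar elements held the least, 11.7% (11.2 to 12.3) in library 1 and 11.2% (10.7 to 11.7) in library 2, from 39 piRNAs at 7 loci. All but 1 of these were Tigger elements, at 74.6 CPM in library 1 against 67.1 CPM in library 2. The order hAT, MULE, TcMar was the same in both libraries, and the intervals of the superfamilies did not overlap within a library.

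A few loci carried most of the signal. The highest locus by mean CPM held 17.1% of DNA transposon counts in library 1 against 20.9% in library 2, the 5 highest held 50.1% and 53.3%, and the 10 highest held 71.7% and 72.0%. Only 13 loci reached a mean of 10 CPM, 43 stayed below it and 11 of those were under 1 CPM. The median locus had 3.56 CPM and the lowest 0.540 CPM.

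**Figure D1:**
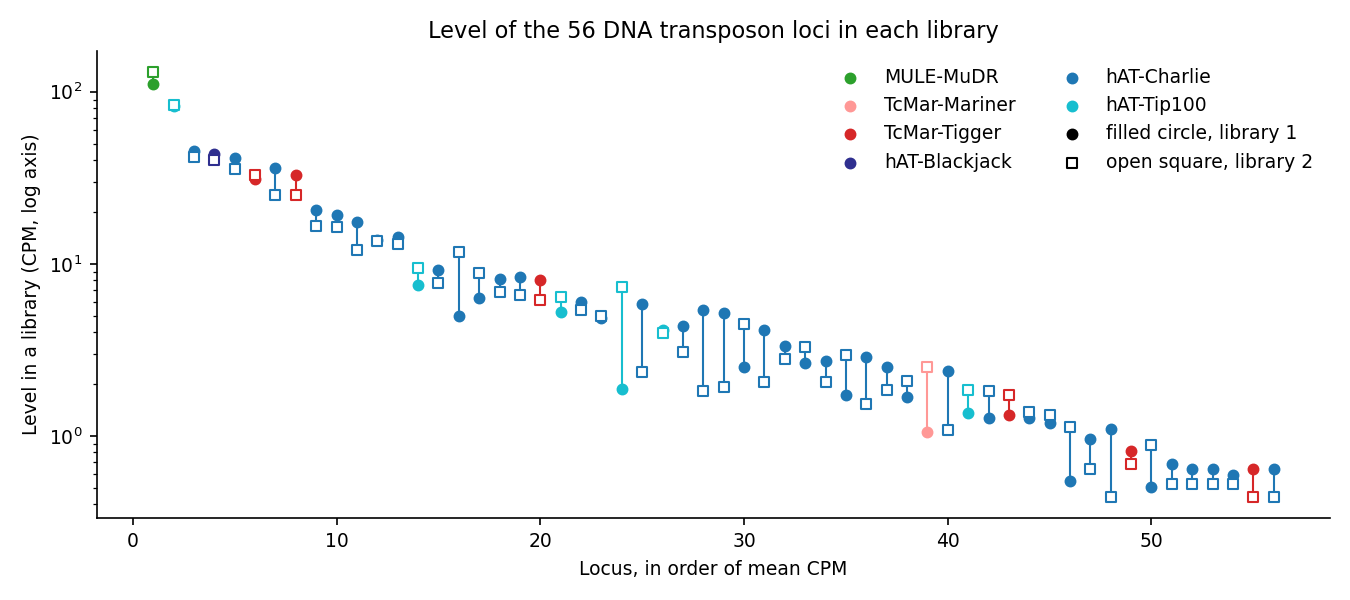
Level of each of the 56 DNA transposon loci in CPM on a log axis, in order of mean CPM, with library 1 as filled circles, library 2 as open squares, a line joining the 2 values of a locus and colours for the families. The 13 highest loci lie above 10 CPM in both libraries, and the libraries lie further apart among the low loci.

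The highest locus is the MULE-MuDR element at chr6:81899939-81900333 on the minus strand, outside annotated genes, with 15 piRNAs over 395 bases. It had 2425 counts (110 CPM) in library 1 and 3234 counts (130 CPM) in library 2, a mean of 120 ± 14.1 CPM. Its leading piRNA, novel_pir47580, was also the highest of all 256, with 1108 and 1240 counts (50.4 CPM and 49.9 CPM) in libraries 1 and 2. It was followed at this locus by novel_pir47578 at 17.5 ± 1.85 CPM and novel_pir47547 at 12.7 ± 4.55 CPM. The level of novel_pir47580 was thus close in the libraries, whereas 7 of the 15 piRNAs of the locus were over 2-fold higher in library 2 and 1 was over 2-fold higher in library 1.

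Second was the hAT-Tip100 element at chr17:39842998-39843163 on the plus strand, which also held the most piRNAs, 19, over 166 bases. It had 1826 counts (83.1 CPM) in library 1 and 2089 counts (84.1 CPM) in library 2. The summed level was close in the libraries (83.6 ± 0.724 CPM), although its leading piRNA, novel_pir33082, had 13.2 CPM in library 1 against 20.2 CPM in library 2, and novel_pir33094 had 11.1 CPM and 7.69 CPM. The 19 piRNAs ran from 0.588 to 16.7 CPM with a median of 2.20 CPM. From base 16 onwards the interval lies on the exon of the lincRNA Gm26917 (39843013 to 39846341, same strand), and RefSeq places the 18S rRNA pseudogene Rn18s-rs5 3191 bases after its end. No ribosomal RNA sequence was used here, so the printed sequence was not compared with ribosomal RNA or its precursor, and what share of the counts comes from such RNA was not tested. No other predicted piRNA locus lay within 10 kb. Without this locus the level of DNA transposon piRNAs was 563 CPM in library 1 against 538 CPM in library 2.

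Next in level was a Charlie element at chr15:59255294-59256102 on the minus strand, outside GENCODE genes but in the RefSeq lncRNA Gm36617. It had 998 counts (45.4 CPM) in library 1 and 1038 counts (41.8 CPM) in library 2 from 16 piRNAs over 809 bases, led by novel_pir27517 at 9.87 ± 0.00665 CPM. The Blackjack element at chr12:98400625-98400689 on the plus strand was different in make-up: 1 of its 4 piRNAs, novel_pir19976, held 89.6% of the 961 counts in library 1 and 91.0% of the 993 counts in library 2. That piRNA, at 39.2 CPM in library 1 against 36.4 CPM in library 2, was the second highest of the 256. At 65 bases this was a short locus, and it had the highest level for its length, 64.4 CPM per 100 bases against 50.4 for the chromosome 17 hAT-Tip100 locus and 30.5 for the MULE-MuDR locus.

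A Charlie element at chr5:113353945-113354048 on the minus strand held 13 piRNAs in 104 bases, the densest of the loci at 12.5 piRNAs per 100 bases. It had 901 counts (41.0 CPM) in library 1 and 885 counts (35.6 CPM) in library 2, and its leading piRNA novel_pir46794 had 12.6 CPM and 7.33 CPM. GENCODE has no gene there, but RefSeq has the transcript 1700016C19Rik.

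On chromosome 19, Charlie elements at 37258504-37258576 and 37258647-37258893 on the plus strand are separated by only 70 bases, in the RefSeq lncRNA 4931408D14Rik. The shorter had 20.6 CPM in library 1 against 16.5 CPM in library 2 from 8 piRNAs, and the longer had 36.0 CPM and 25.2 CPM from 17 piRNAs. Both were thus higher in library 1.

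The TcMar-Tigger elements were led by the locus at chr12:98438586-98438902 on the plus strand, in an intron of Kcnk10, a potassium channel gene of the opposite strand. It had 682 counts (31.0 CPM) in library 1 and 817 counts (32.9 CPM) in library 2, spread over 18 piRNAs of 0.469 to 7.82 CPM. A Tigger element at chr14:24092525-24092704 on the minus strand, outside genes, had 718 counts (32.7 CPM) in library 1 and 626 counts (25.2 CPM) in library 2. Its leading piRNA novel_pir25142 held 44.0% and 35.0% of these counts, at 14.4 CPM in library 1 against 8.82 CPM in library 2. The TcMar-Mariner element, in an intron of the epsilon-tubulin gene Tube1 on the opposite strand, had 1 piRNA, with 23 counts in library 1 against 62 counts in library 2.

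The remaining loci among the 15 highest were 5 Charlie elements and 1 Tip100 element with means from 8.46 to 17.8 CPM. Of these, the Charlie element at chr15:59268653-59268844 had 19.2 CPM in library 1 against 16.3 CPM in library 2, and the Charlie element at chr7:73120898-73121105 had 13.7 CPM and 13.6 CPM. The Charlie element whose sequence is shown, at chr17:27362367-27362519, lies on an exon of the lincRNA Gm49794 on the same strand and had 386 counts (17.6 CPM) in library 1 and 297 counts (12.0 CPM) in library 2 from 11 piRNAs. Charlie elements at chr15:59263867-59264063 and chr8:110129125-110129298 had 13.7 ± 0.907 and 8.46 ± 1.03 CPM. The Tip100 element at chr8:110127646-110127751 had 7.51 CPM in library 1 against 9.42 CPM in library 2.

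**Figure D2:**
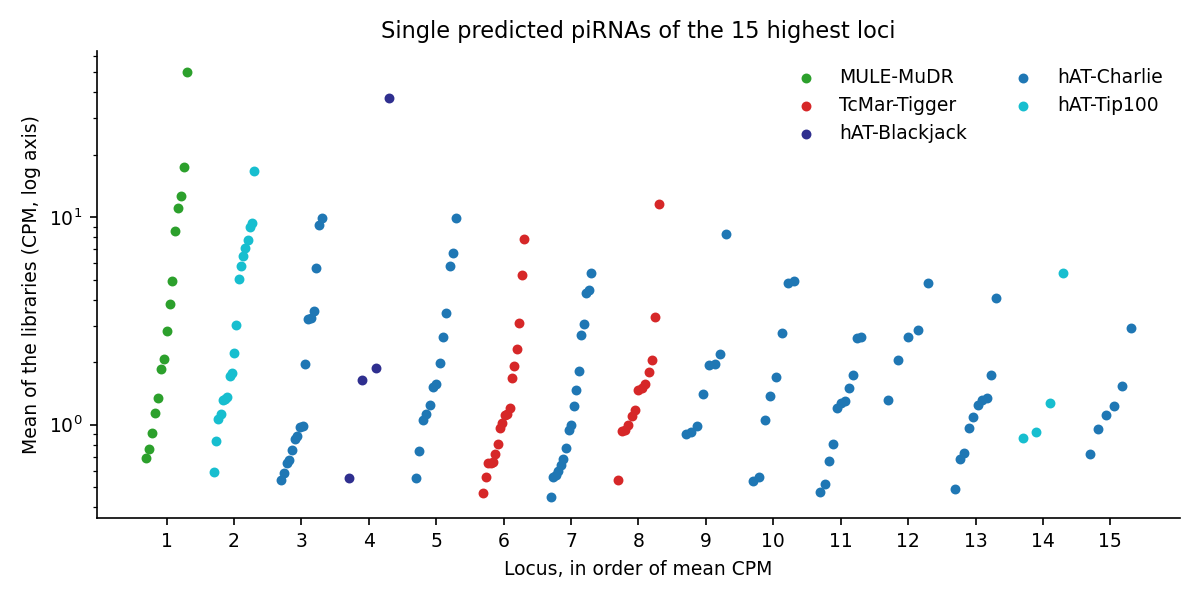
Mean level of each predicted piRNA of the 15 highest loci in CPM on a log axis, with a column of points for each locus in order of mean CPM and colours for the families. At the fourth locus, Blackjack, 1 piRNA stands at 37.8 CPM above 3 others, while the second locus, Tip100, has 19 piRNAs spread from 0.588 to 16.7 CPM.

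By GENCODE M21, 39 of 56 loci (69.6%) were outside annotated genes and held 74.0% of DNA transposon counts in library 1 and 72.7% in library 2, while 13 lay in introns and 4 on exons. Among all other predicted piRNA loci, 1003 of 1592 (63.0%) were outside GENCODE genes. RefSeq has a gene, mostly an lncRNA, at 14 of the 39 loci, so 25 of 56 (44.6%) were outside both annotations, with 43.4% of DNA transposon counts in library 1 against 45.7% in library 2. Of the other loci, 898 of 1592 (56.4%) were outside both. Of the 17 DNA transposon loci in GENCODE genes, 12 had the strand opposite to the gene (70.6%), compared with 339 of 589 (57.6%) of the other loci. It is not stated whether the labelled strand is that of the tags or that of the repeat, so no orientation of the RNA was read from it. Beside the lincRNAs Gm26917 and Gm49794, exons were met on the opposite strand in Gk5, a glycerol kinase gene, with 37 counts in library 1 against 52 in library 2, and in AW554918, with 28 and 34 counts.

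DNA transposon loci often lay close to other predicted piRNA loci. Within 10 kb on the same strand, 36 of 56 loci (64.3%) had another predicted piRNA locus, compared with 522 of 1592 (32.8%) of the other loci. On either strand, 40 DNA transposon loci (71.4%) had such a neighbour, and these held 82.8% of DNA transposon counts in library 1 and 81.8% in library 2. The LINEs other than L1 had a similar share, 33 of 44 loci (75.0%), and the LTR classes and L1 ranged from 30.1% to 50.9%. No test was made of these shares, because neighbouring loci are not independent of each other.

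The 16 loci without a neighbour differed from the 40 with one in several measures. Their median level was 1.67 CPM against 5.76 CPM, 13 of the 16 had a single piRNA against 7 of the 40, and 11 lay in GENCODE genes against 6. The chromosome 17 hAT-Tip100 locus, at 83.6 CPM, was the exception among them. Predicted miRNAs of the same files were placed within 10 kb of 21 DNA transposon loci (37.5%) and of 213 of the 1592 other loci (13.4%). The LINEs other than L1 again had a similar share, 17 of 44 loci (38.6%), and the LTR classes and L1 ranged from 7.57% to 19.8%.

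When loci of any class no more than 10 kb apart were joined, the 40 DNA transposon loci fell into 23 stretches of 2.58 to 44.5 kb. These stretches held 273 loci and 2529 predicted piRNAs, with 27.9% of the predicted piRNA counts of library 1 and 31.8% of those of library 2. DNA transposons supplied only 7.51% of the counts of these stretches in library 1 and 7.21% in library 2. The neighbours within 10 kb were 45 L1, 41 ERVL-MaLR, 26 ERVK, 16 ERVL, 15 ERV1 and 11 other LINE loci. In 22 of the 23 stretches, loci of both strands were present.

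The share of DNA transposons differed widely among the stretches. On chromosome 6 the MULE-MuDR locus gave 98.4% of the counts of its stretch in library 1 and 98.1% in library 2, with an L1 locus as the sole neighbour. On chromosome 17, the Charlie locus on Gm49794 gave 1.30% and 0.813% of a stretch of 26 loci and 42.9 kb that had 1350 CPM in library 1 against 1471 CPM in library 2. Of the 23 stretches, 3 had more than 50% of their counts from DNA transposons in both libraries, and 12 had under 5%.

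DNA transposon loci also lay near each other, with 9 stretches holding 2 or more of them and 26 loci in all. The stretch on chromosome 15 from 59255294 to 59299351 held 5 Charlie loci among 26, with 84.2 CPM in library 1 against 77.7 CPM in library 2. A compact stretch of 7.22 kb on chromosome 8 held 3 Charlie loci and 1 Tip100 locus beside 2 L1 loci, and DNA transposons gave 65.0% and 73.0% of its counts. Of 13 pairs of adjacent DNA transposon loci within 10 kb, 10 were of the same family and 8 of the same strand.

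**Figure D3:**
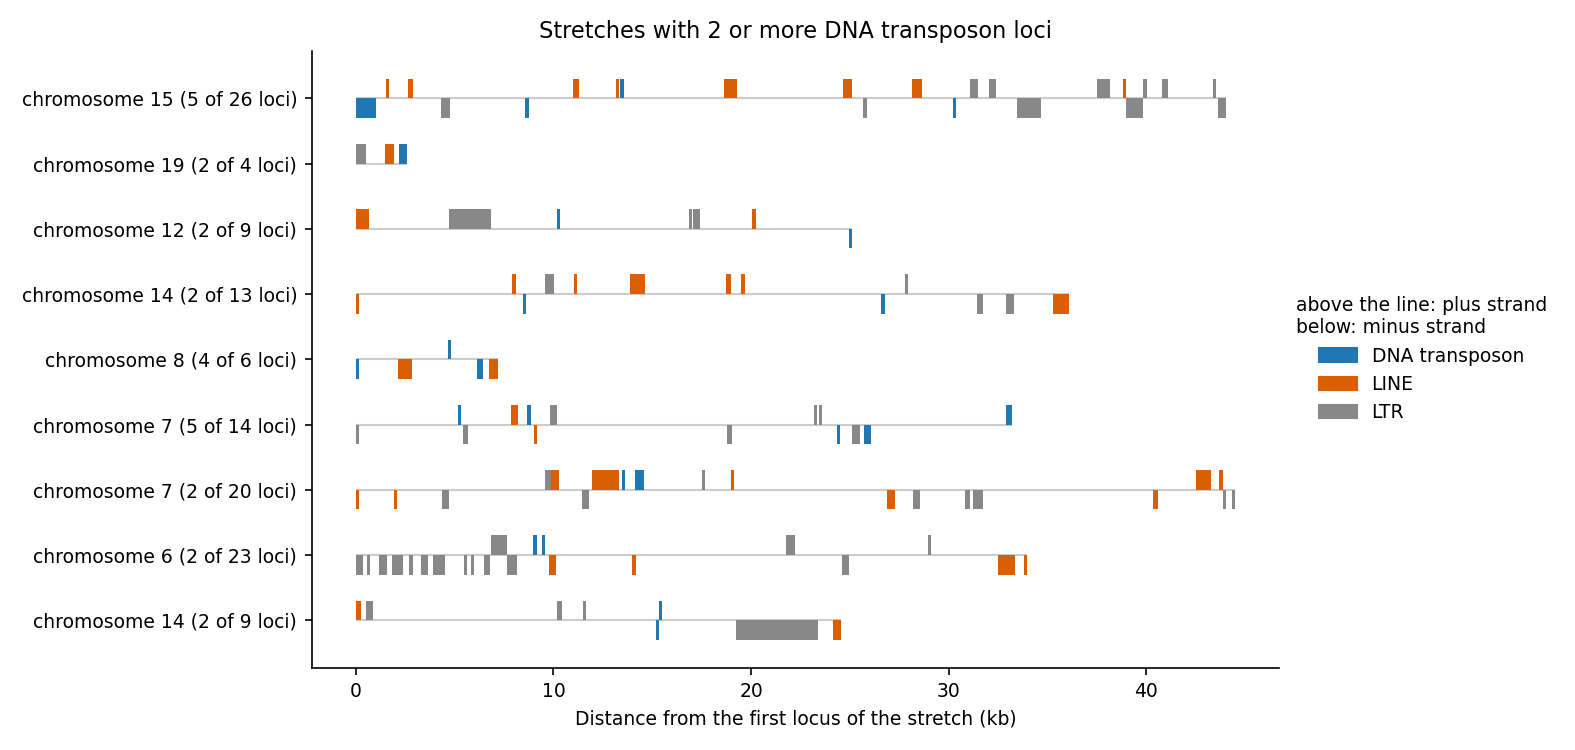
The 9 stretches with 2 or more DNA transposon loci, drawn to scale in kb from their first locus, with plus-strand loci above the line and minus-strand loci below it, DNA transposons in blue, LINEs in orange and LTR elements in grey. Loci under 0.15 kb are drawn 0.15 kb wide. The stretch on chromosome 15 and a stretch on chromosome 7 hold 5 DNA transposon loci each. The chromosome 8 stretch holds 4 beside L1 loci alone, and in the chromosome 19 stretch all loci are on the plus strand.

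Loci in DNA transposons were shorter than those of most other classes and held more piRNAs for their length than all but LINEs other than L1. Their median length was 185.5 bases (range 46 to 997), against 389 bases for all other predicted piRNA loci. They had a median of 2 piRNAs per locus against 1, and 1.98 piRNAs per 100 bases against 0.784. Loci with a single piRNA were 20 of 56 (35.7%), against 902 of 1592 (56.7%) outside DNA transposons. ERVL loci had a similar median length of 190 bases, and LINEs other than L1 were shorter, at 108.5 bases, with a similar share of loci with a single piRNA, 31.8%. These are descriptions without a test.

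**Figure D4:**
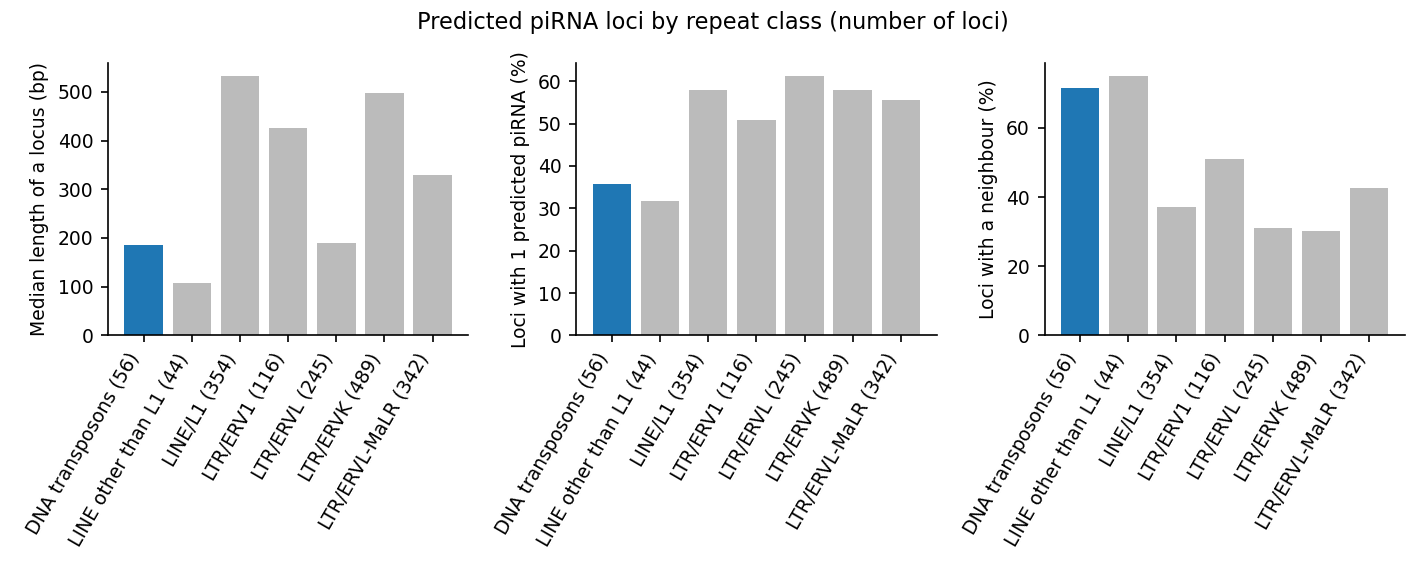
Median length of a locus in bases, share of loci with a single predicted piRNA and share of loci with another predicted piRNA locus within 10 kb on either strand, for DNA transposons (blue) and the other repeat classes (grey), with the number of loci in brackets. DNA transposons and LINEs other than L1 have the lowest shares of single-piRNA loci, 35.7% and 31.8%, and the highest shares with a neighbour, 71.4% and 75.0%.

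Single piRNAs varied between the libraries far more than the loci they belong to. Of the 256 piRNAs, 80 (31.2%) were over 2-fold apart, 43 higher in library 1 and 37 higher in library 2. The background was 29.2% among the 6332 other predicted piRNAs (19.4% higher in library 1 and 9.82% higher in library 2), and 33.7% among all 23876 entries that averaged 10 counts or more (12.6% and 21.2%). A share of 31.2% is close to both, but the entries were not held to the same minimum. All 256 piRNAs had at least 10 counts in each library, whereas all entries needed only a mean of 10. The log2 ratios of all entries ran from −8.84 to 14.2, against −3.48 to 2.76 for the 256 piRNAs. With TMM factors in place of the listed totals, 52 of the 256 (20.3%) were over 2-fold higher in library 1 and 24 (9.38%) in library 2, beside 25.2% and 7.23% of the other predicted piRNAs and 15.9% and 17.1% of all entries. The median log2 ratio of all entries was −0.01 with TMM factors and −0.20 with the listed totals. Of the 56 loci, 9 (16.1%) were over 2-fold apart, 5 higher in library 1 and 4 in library 2. Among the 1592 other predicted piRNA loci the background was 25.9%, with 18.8% higher in library 1 and 7.1% higher in library 2. These sets of loci are unlike. A single piRNA was held by 35.7% of DNA transposon loci and 56.7% of the others, and the median locus had 3.56 and 2.34 CPM. Whether this bears on the shares of loci apart was not tested.

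The median log2 ratio of library 1 over library 2 was 0.16 for the 256 piRNAs, 0.18 for the other predicted piRNAs and −0.38 for known piRNAs. Relative to the median of all entries, predicted piRNAs in DNA transposons were thus higher in library 1, like the other predicted piRNAs. Across the 256 piRNAs the log2 levels of the libraries had Pearson's r 0.72 and Spearman's rho 0.60, and across the 56 loci r 0.95 and rho 0.92. Points of a locus share its tags, and a locus sums several piRNAs with more counts than each, so these values are descriptions. The median piRNA had 26 counts in library 1 against 28.5 in library 2, and 22 of 256 had at least 100 counts in both.

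**Figure D5:**
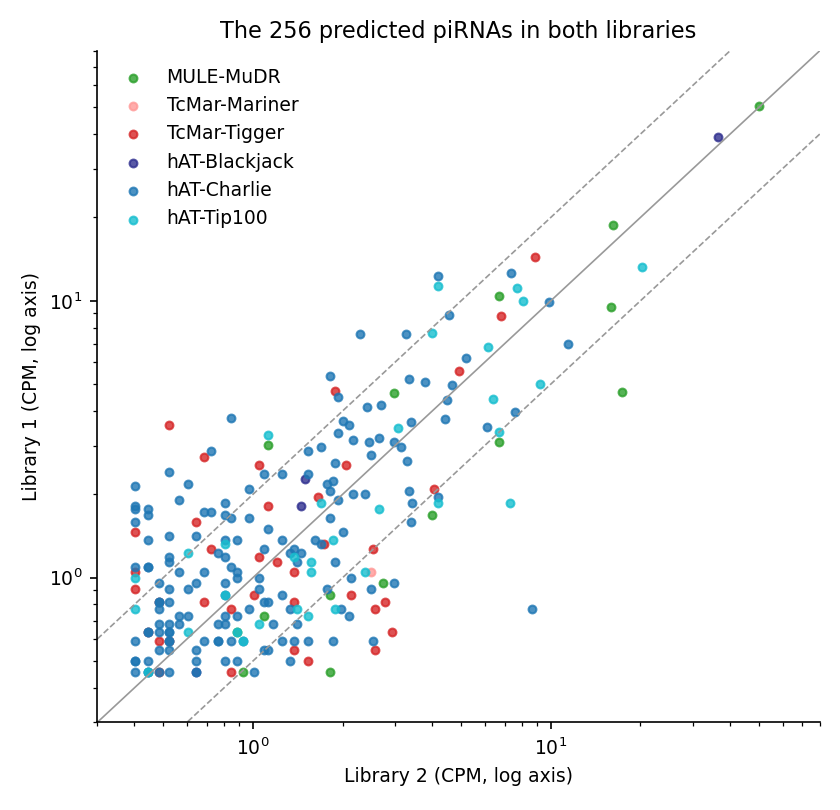
Level of each of the 256 predicted piRNAs in library 1 (vertical, CPM, log axis) and library 2 (horizontal, CPM, log axis), coloured by family, with a solid line of equal levels and dashed lines at 2-fold. The highest 2, of the MULE-MuDR and Blackjack loci, lie near the line, and 80 points lie outside the dashed lines.

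The piRNAs furthest apart, among 34 with a mean count of at least 100, belonged to 5 different loci. The Charlie piRNA novel_pir57183 had 17 counts in library 1 and 215 counts in library 2, a log2 ratio of −3.48. Its locus at chr9:54243134-54243254, in an intron of the aromatase gene Cyp19a1 on the opposite strand, had 109 and 291 counts, so this piRNA made up 15.6% of the locus in library 1 and 73.9% in library 2.

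Next came novel_pir18089 with 41 counts in library 1 and 181 counts in library 2. It is the only piRNA of the chromosome 11 hAT-Tip100 locus at chr11:104072971-104073136, which was the locus furthest apart (log2 ratio −1.97). The last 26 bases of the Mir5099 hairpin are identical to the first 26 of this locus. The listed hairpin entry of miR-5099 had 3598 counts (164 CPM) in library 1 and 4840 counts (195 CPM) in library 2, a log2 ratio of −0.25. The label of novel_pir18089 gives the interval of the locus alone, so whether it covers these bases was not tested. The MULE-MuDR piRNA novel_pir47564 had 103 and 431 counts in libraries 1 and 2 (−1.89).

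The other pair were higher in library 1. The Charlie piRNA novel_pir27419 of chromosome 15 had 167 counts in library 1 against 57 in library 2 (1.73), and novel_pir36187 of chromosome 19 had 271 and 104 counts (1.56). The loci of both were less than 1.5-fold apart, at log2 ratios of 0.24 and 0.32.

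Among the 24 loci that averaged at least 100 counts, the chromosome 11 Tip100 locus and the Cyp19a1 locus were the only ones over 2-fold apart, both higher in library 2. After them came the Charlie loci on Gm49794 (log2 ratio 0.55), at chr19:37258647-37258893 (0.51) and at chr9:67704959-67705159 (−0.47, with 139 counts in library 1 against 218 in library 2). The libraries were thus within 1.5-fold of each other at the remaining 22 of these loci.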

How the data were processed

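Small RNA of testicular EVs was measured in 2 libraries of 1 condition on the BGISEQ-500 platform. The authors mapped reads with Bowtie2 and cmsearch to the genome and small RNA databases, gave each tag a single class by priority, and predicted piRNAs with Piano. The build and tool versions were not stated in the sources used here. For each library they deposited a whole-number count per entry, without normalization, and a value headed TPM. These deposited values follow tags scaled to 1000000 of a total above the listed one, without length correction, so their unit is RPM; they were used as an alternative only.

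Of the deposited entries, 27065 are listed in each library, with 21970654 counts in library 1 against 24829208 in library 2 (93.7% and 94.9% of the estimated tags). CPM were counts per 1000000 listed counts. Loci were entries with an identical position label, and their length was counted as end minus start plus 1. With 1 condition no test between groups was possible; the spread is the SD of both libraries, and intervals are exact Clopper-Pearson 95% intervals (SciPy 1.17.1). The step that counts entries over 2-fold apart was tested on simulated data.

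The build was read from the data: at the deposited positions 9 of 168 predicted miRNAs lay on a GENCODE M21 (GRCm38) small RNA gene on their strand, compared with 1 and 0 once positions were shifted by 1000 bases either way. Gene contexts needed an overlap of 1 base, the same strand first. No genome sequence was used, so the sequence comparison planned among all loci was not run, and sequences came from transcripts and RefSeq tables for 3 loci.

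Named were the 15 loci of highest mean CPM, the highest locus of each family, each locus on an exon, the 10 piRNAs of highest mean CPM, the 5 piRNAs and 5 loci furthest apart among those averaging 100 counts or more, and the locus with most piRNAs. The members, lists and rule were chosen with earlier results of these data known. Further top piRNAs of named loci and the miR-5099 hairpin were named after their values were seen. Alternatives were the deposited RPM values, TMM (edgeR 4.0.16) and DESeq2 1.42.0 scaling in R 4.3.3, other totals, count minimums, distances, strands, folds and each library left out. Python 3.11.15 with pandas 2.3.3, NumPy 2.4.6 and matplotlib 3.10.9 was used for tables and plots.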

Additional observations from a re-analysis of the deposited data

How the results depend on the processing

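No paired analysis was possible because a single condition was sequenced. Leaving out either library gave shares of 2.53% to 2.80%, levels of 622 to 646 CPM, and superfamily shares of 67.9% to 71.2% (hAT), 17.1% to 20.9% (MULE) and 11.2% to 11.7% (TcMar), and the highest 1, 5 and 10 loci then held 17.1% to 20.9%, 50.1% to 53.3% and 71.7% to 72.0%. Of 41 other planned values, 24 moved by less than the spread between the libraries and 17 moved by more. For counts the limit was 1.5-fold, and for the median log2 ratio it was 0.1. That ratio kept its sign, and no other of these values could change sign. TMM factors were set to the average size of the listed totals, so the mean level was bound to stay close, at 636 CPM. The level was then 689 CPM in library 1 against 584 CPM in library 2. With at least 100 counts in both libraries the share was 1.92% and 9 loci were left. Over the estimated total of tags the level was 598 CPM, and over annotated entries alone 2424 CPM. As shares of loci, hAT had 85.7%, MULE 1.79% and TcMar 12.5%, and without the highest locus, the sole MULE locus, the shares of counts were 85.9%, 0% and 14.1%. The 10 highest loci held 74.6% when intervals within 1 kb on a strand were merged. The median log2 ratio was 0.35 with TMM and 0.34 with DESeq2 size factors. At 1.5-fold 141 piRNAs were apart and at 3-fold 28. With protein-coding genes only, 2 loci lay on exons, and within 1 kb 20 loci had a neighbour on the same strand. Leaving out the chromosome 17 hAT-Tip100 locus, an alternative chosen after seeing the data, gave a share of 2.32%, a level of 550 CPM, superfamily shares of 64.9% (hAT), 21.9% (MULE) and 13.2% (TcMar), and shares of 21.9% and 70.2% for the highest 1 and 10 loci. The cause of these shifts was not tested, except where fewer entries or loci enter by construction. Single piRNAs mostly had few counts, with a median of 26 in library 1 and 28.5 in library 2. How much of their spread comes from depth was not tested. Groups of 2 libraries are too small for a check of single outlying samples.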
